A study of Homo sapiens with 6 samples.

Results

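TAPBP encodes tapasin, the bridge between MHC class I molecules and the transporter that brings them their peptides. It is described here on 6 arrays of OCI-AML3 cells together with 9 genes of the same route, namely TAP1, TAP2, B2M, CALR, PDIA3, ERAP1, PSMB8, PSMB9 and PSMB10. They were taken by name, with every probe set that names one of them and no other gene, which gave 25 of 54613 probe sets tested and 10 of 19775 genes. Tapasin stands in a list of genes decreasing under Vorinostat that the study drew from these same samples, so a lower value of TAPBP here is not independent evidence of its direction.

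The OCI-AML3 line was derived from human acute myeloid leukaemia and carries a mutated nucleophosmin gene (NPM1). The 3 DMSO samples received the solvent alone and the 3 Vorinostat samples 1 μM Vorinostat (SAHA), an inhibitor of histone deacetylases, each for 24 h. Total RNA was hybridised to Affymetrix HG-U133 Plus 2.0 arrays, which read a gene by one or more probe sets and give a log2 signal for each. The samples carry the replicate numbers 1, 2 and 3 in both groups, and because separate cultures are not stated, a p-value covers the spread among these 6 samples and no more, and that spread may be technical.

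MHC class I molecules show fragments of the cell's own proteins to cytotoxic T cells. The proteasome cuts the proteins, and in cells of the immune system or under interferon gamma 3 of its catalytic subunits are exchanged for PSMB8, PSMB9 and PSMB10. TAP1 and TAP2 form the transporter that carries the peptides into the endoplasmic reticulum, where the aminopeptidase ERAP1 trims them. There tapasin, the chaperone calreticulin (CALR) and the disulphide isomerase ERp57 (PDIA3) hold an empty heavy chain with its light chain β2-microglobulin (B2M) beside the transporter until a peptide is bound.

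Most promoters of these genes share a sequence element, which is shown because it was, of 4 motifs searched, the one that most of them held, and the choice of the genes did not use it. It is the core of the interferon-stimulated response element (ISRE), to which interferon regulatory factors bind, searched as GAAANNGAAA on both strands of RefSeq windows of GRCh38.p14. A window runs from 250 bases before a gene's transcription start to 50 after it. Of the 9 genes with a window, 7 held the core, against 4.38% of 27305 genes and 3.57% of 35116 windows. The stretches below are written 5′ to 3′ on the strand of the gene. Capitals mark the core, which reads TTTC and not GAAA where the match lies on the opposite strand, and TAPBP, B2M and TAP1 each have a pair of overlapping matches.
TAPBP, chr6:33314079-33314110, minus strand: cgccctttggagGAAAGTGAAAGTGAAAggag
B2M, chr15:44711361-44711400, plus strand: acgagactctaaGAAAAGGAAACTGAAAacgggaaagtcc
TAP1, chr6:32853811-32853850, minus strand: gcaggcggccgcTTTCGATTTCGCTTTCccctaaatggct
TAP2, chr6:32838776-32838809, minus strand: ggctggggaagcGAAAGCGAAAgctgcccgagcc
PSMB8, chr6:32844038-32844055, minus strand: tggcTTTCGCTTTCactt
PSMB10, chr16:67936851-67936883, minus strand: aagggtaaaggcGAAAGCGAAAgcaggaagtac
ERAP1, chr5:96807930-96807947, minus strand: ccacTTTCACTTTCggtc

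With the first transcribed base counted as 0, the match of TAPBP ran from base -20 to -5, that of PSMB10 from -21 to -12, that of TAP2 from -58 to -49, that of TAP1 from -134 to -119 and that of B2M from -144 to -129. In PSMB8 it crossed the start, from -4 to 5, and in ERAP1 it lay just after it, from 2 to 11. The windows of CALR and PSMB9 did not hold these letters. The window of PSMB9 starts at base 32853942 of chromosome 6, near the stretch of TAP1 that ends at 32853850. The core of TAP1 thus lay close to that window but outside it, and longer windows were not searched. A sequence read by NF-kB, searched as GGGNNTTTCC, was found in B2M, TAP1 and TAPBP, which is 3 of 9 genes against 2.33% of all genes. The gamma-activated sequence TTCNNNGAA was found in TAP1 and PSMB8, 2 of 9 genes against 9.38%, and CCAAT in 5 of 9 against 39.7%. Of 36 further genes of the class I route with a window, 6 held the ISRE core, and of 10 general control genes 0. A match describes the letters in a window and is no site of binding or cause of a level.

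**Figure D1:**
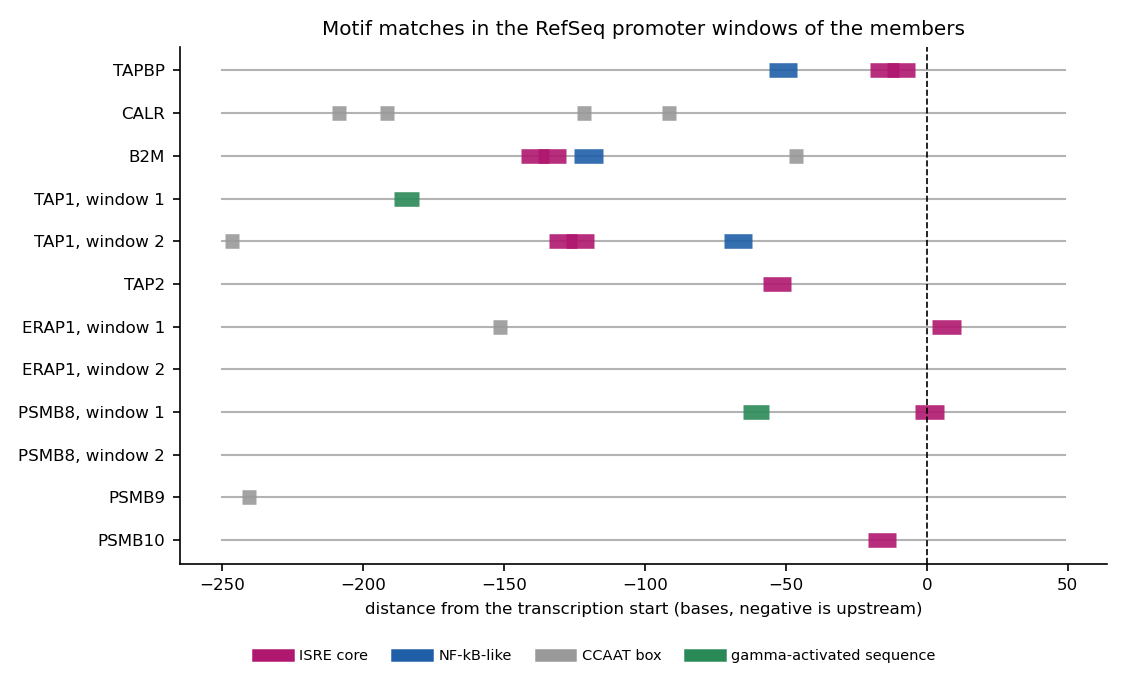
Motif matches in the RefSeq promoter windows, plotted by distance in bases from the transcription start (dashed line), with 1 grey line per window and a coloured bar per match. The ISRE core appears in windows of TAPBP, B2M, TAP1, TAP2, ERAP1, PSMB8 and PSMB10.

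The arrays differed in signal before any treatment effect is considered. Replicate 1 held 8645 probe sets above a log2 signal of 3 with DMSO and 8158 with Vorinostat, and the other 4 arrays 2761 to 3731. From DMSO to Vorinostat this number went from 3731 to 2769 in replicate number 2 and from 2761 to 3274 in number 3. A control list of general genes, 11 of 13 measured, had median differences of 0.07, -1.56 and -0.31 in numbers 1, 2 and 3. The myeloid genes ELANE, LYZ, MEIS1 and NPM1 reached 3 on some array of each group, while MPO, CD34, KIT, CSF3R and ANPEP were under 3 on all 6. Markers of T and NK cells and of erythroid cells lay under 3 on all arrays, whereas single markers of other types passed it on 1 or more, up to 5.00 for PECAM1. Their part in the results below was not tested. In such bulk samples, fewer cells of a type and less RNA per cell cannot be told apart.

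TAPBP was lower with Vorinostat in replicate numbers 1 and 2 and higher in number 3, and its mean difference did not pass the test. Probe set 208829_at read 5.20, 3.68 and 3.37 on DMSO arrays 1, 2 and 3, and 3.22, 1.66 and 3.81 on Vorinostat arrays 1, 2 and 3. Vorinostat arrays 1 and 2 lay below all 3 DMSO arrays, but Vorinostat array 3 lay above DMSO arrays 2 and 3, so the groups overlapped. For each of the other 9 genes, in contrast, array 1 was the highest of its group with DMSO and with Vorinostat. The mean log2 signal of the DMSO arrays was 4.09 ± 0.98 (SD, n = 3), and that of the Vorinostat arrays 2.90 ± 1.11 (SD, n = 3). Vorinostat minus DMSO was -1.19 on the log2 scale, with a standard error of 0.74, a 95% interval of -3.05 to 0.67 and an adjusted p = 1 from limma over all probe sets. Within numbers 1, 2 and 3 the differences were -1.98, -2.02 and 0.45. The arrays set number 1 apart but did not tell numbers 2 and 3 from each other, so a difference within number 2 or 3 rests on the labels alone. Without Vorinostat replicate 2 the difference was -0.57 and without DMSO replicate 1 it was -0.63, while without both number 3 arrays it was -2.0.

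The other 2 probe sets of TAPBP were dim, with means under 3 over the 6 arrays, the level below which a probe set is called dim here. Probe set 210294_at read 1.66, 2.26 and 2.18 with DMSO and 1.65, 1.71 and 1.64 with Vorinostat, a difference of -0.37 (standard error 0.18 from limma). Probe set 1555565_s_at differed by -0.10 (standard error 0.098 from limma). Both were lower in all 3 numbers, including number 3, in which the brighter probe set was higher. Their Vorinostat values still overlapped with those of DMSO. With the control list scaled to be equal on all arrays, the differences of these dim probe sets turned to 0.06 and 0.33, while that of 208829_at was -0.75. That scaling moved the median of all genes from -0.02 to 0.42.

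**Figure D2:**
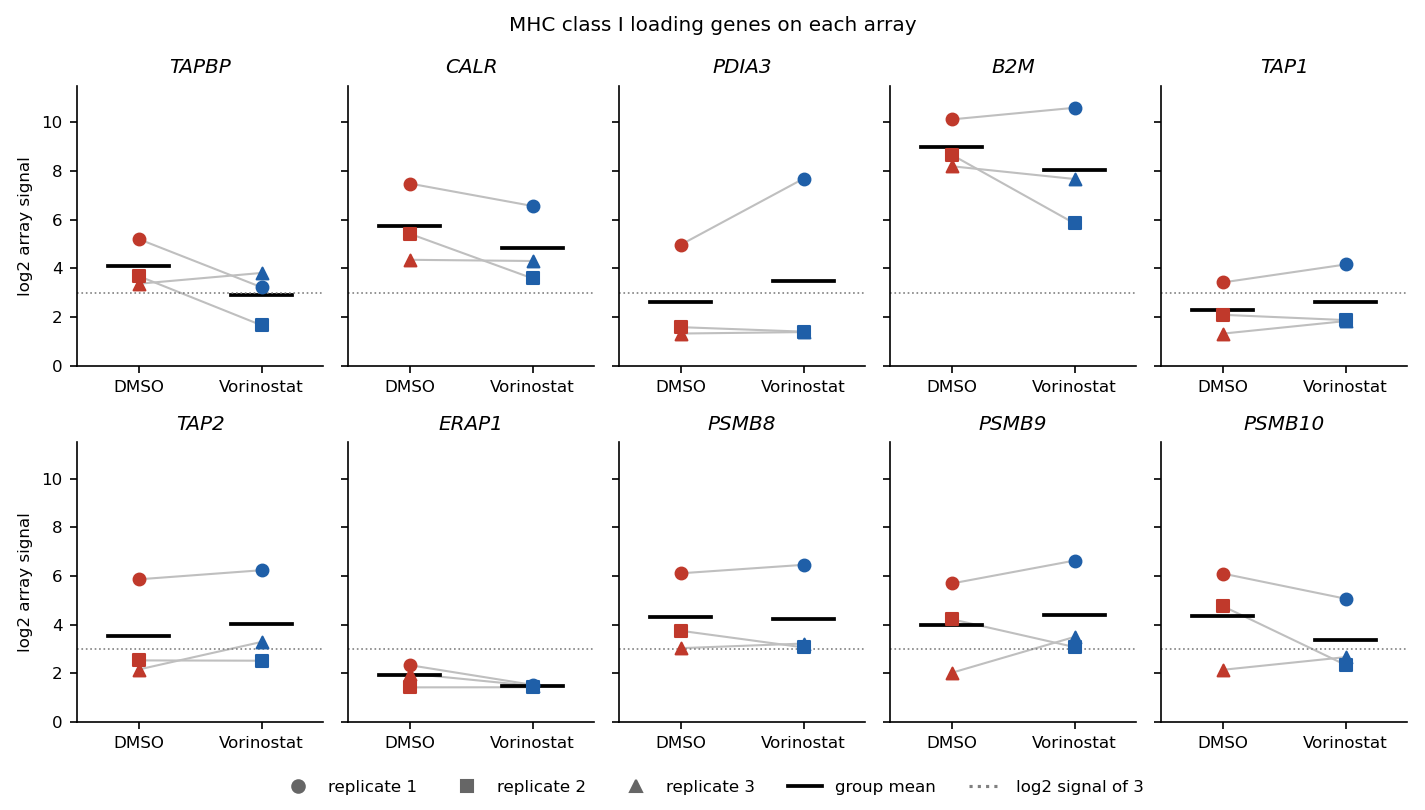
Log2 array signal of the 10 class I loading genes on each array, by their brightest probe set, with DMSO in red and Vorinostat in blue, grey lines joining the same replicate number and black bars at the group means. Replicate 1 (circles) is highest in both groups for the other 9 genes, and TAPBP is the one in which Vorinostat replicate 1, at 3.22, is not the highest Vorinostat array.

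Over the 25 probe sets, 0 met the study's own criterion by limma, which asks for a change of more than 2-fold and p under 0.05 without adjustment. Of all probe sets tested, 0.0165% passed it upwards and 0.0275% downwards. The study's own list at this criterion, from its processing in Partek Genomics Suite, holds TAPBP. The fit here did not return that call, and it placed fewer genes past the criterion than the study reports. With the p under 0.05 alone there were again 0 of 25, against 0.498% higher and 0.5% lower of all probe sets, and 0% of all probe sets had an adjusted p under 0.05. Blocking on the replicate number, limma also placed 0 of 25 past the threshold of the study, against 0.0952% higher and 0.32% lower. In 0 of 25 did the 3 arrays of one group all lie above those of the other, which held for 2.39% of all probe sets higher and 2.87% lower. TAPBP 208829_at was the 1 of 25 with a mean difference over 2-fold, downwards, as had 0.767% of all probe sets. Among probe sets with a mean of at least 3 it was 1 of 10, beside 355 of 4920 that were lower by over 2-fold.

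Of the genes that hold the empty class I molecule, calreticulin was lower in all 3 numbers and the others were not. CALR, by probe set 214315_x_at, read 7.49, 5.42 and 4.35 with DMSO and 6.57, 3.59 and 4.30 with Vorinostat. Both number 1 arrays stood above the rest, and the groups overlapped. The mean was 5.76 ± 1.59 (SD, n = 3) against 4.82 ± 1.55 (SD, n = 3), and Vorinostat minus DMSO was -0.94 by limma (standard error 1.11, adjusted p = 1), with -0.92, -1.84 and -0.05 in numbers 1, 2 and 3. Blocked on the number, its p from limma was 0.0623, the lowest among the 10 genes, and that of TAPBP was 0.105, with an adjusted p of 0.887 for both. After quantile normalisation CALR 214315_x_at differed by -0.68 with an unadjusted p = 0.0033 from limma (adjusted p = 1), the 1 of 25 probe sets with a p under 0.05 there, beside 401 higher and 476 lower of all 54613. Without DMSO replicate 1 its difference was -0.069 and without Vorinostat replicate 2 it was -0.32, while without Vorinostat replicate 1 it was -1.81 and without DMSO replicate 3 it was -1.64. A 2nd probe set of CALR above a mean of 3, 212953_x_at, differed by 0.21 and was higher in numbers 1 and 3. The _x_ in both names marks probe sets that may also bind other transcripts.

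B2M, the light chain of the class I molecule, was read by 2 probe sets with a mean of at least 3, of which the brighter, 216231_s_at, gave 10.13, 8.67 and 8.20 with DMSO and 10.60, 5.85 and 7.68 with Vorinostat. Vorinostat array 2 was the lowest and Vorinostat array 1 the highest of the 6. The mean was 9.0 ± 1.0 (SD, n = 3) against 8.04 ± 2.40 (SD, n = 3), and the difference was -0.96 by limma (standard error 1.29, adjusted p = 1), with 0.48, -2.82 and -0.52 in numbers 1, 2 and 3. Probe set 201891_s_at of B2M had the same signs, at 0.80, -1.47 and -0.40, but its mean difference of -0.36 turned to 0.32 after quantile normalisation and 0.07 with the control list scaled. Without Vorinostat replicate 1 the difference of 216231_s_at was -2.24 with an unadjusted p = 0.0473 from limma (adjusted p = 0.932), past the threshold of the study, without Vorinostat replicate 2 it was 0.14, and after quantile normalisation it was -0.26. Each of these 2 arrays therefore decided the value.

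PDIA3, which forms disulphide bonds in class I heavy chains and is joined to tapasin by one, was above 3 on the number 1 arrays only. Probe set 208612_at read 4.97, 1.58 and 1.32 with DMSO and 7.69, 1.40 and 1.38 with Vorinostat. The mean was 2.63 ± 2.04 (SD, n = 3) against 3.49 ± 3.64 (SD, n = 3), a difference of 0.86 by limma (standard error 2.07, adjusted p = 1). Its difference in number 1 was 2.72, and those in numbers 2 and 3 were -0.19 and 0.06. Without both number 1 arrays the difference was -0.06. The other 2 probe sets of PDIA3 had means under 3 and differed by 0.29 and -0.04.

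The transporter subunits TAP1 and TAP2 had mean differences above 0 and the trimming enzyme ERAP1 one below 0, and none of them passed the test. TAP1, by its one probe set 202307_s_at, read 3.42, 2.09 and 1.32 with DMSO and 4.16, 1.87 and 1.83 with Vorinostat. Only the number 1 arrays were above 3, and the difference was 0.35 (standard error 0.85 from limma), with 0.74, -0.22 and 0.52 in numbers 1, 2 and 3. TAP2, by 225973_at, read 5.86, 2.53 and 2.16 with DMSO and 6.24, 2.52 and 3.29 with Vorinostat. The groups overlapped, with a difference of 0.50 (standard error 1.41 from limma) and 0.37, -0.01 and 1.13 in the numbers. A dimmer probe set of TAP2, 204769_s_at, went the other way at -0.45 and was lower in all 3 numbers.

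ERAP1 was read by 5 probe sets, all with means under 3 and with differences from -0.43 to 0.11. The brightest, 209788_s_at, read 2.33, 1.42 and 1.98 with DMSO and 1.52, 1.43 and 1.48 with Vorinostat. The Vorinostat values lay close together, 1 of the DMSO arrays lay below all of them, and the difference was -0.43 by limma (standard error 0.24, adjusted p = 1). ERAP1 and TAP1 thus had no probe set with a mean of at least 3, and a change in them may not have been detectable at this signal.

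Among the subunits of the immunoproteasome, PSMB10 had the signs of TAPBP in all 3 numbers as labelled, and PSMB8 and PSMB9 did not. The pairwise permutation test given further on cannot decide whether any of them differs from TAPBP, since its smallest possible p is 0.1. PSMB10, by 202659_at, read 6.10, 4.76 and 2.14 with DMSO and 5.07, 2.34 and 2.66 with Vorinostat. DMSO array 3 was the lowest of all 6, so the groups overlapped although Vorinostat was lower in numbers 1 and 2. Its mean was 4.34 ± 2.01 (SD, n = 3) against 3.36 ± 1.49 (SD, n = 3), and the difference was -0.98 by limma (standard error 1.24, adjusted p = 1), with -1.03, -2.42 and 0.52 in numbers 1, 2 and 3. The size rested on single arrays, being -0.095 without DMSO replicate 1, -0.47 without Vorinostat replicate 2 and -0.63 without Vorinostat replicate 3, but -1.83 without Vorinostat replicate 1 and -2.07 without DMSO replicate 3.

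PSMB9, which the interferon-induced proteasome carries in the place of PSMB6, read 5.69, 4.22 and 2.02 with DMSO and 6.63, 3.08 and 3.50 with Vorinostat at 204279_at. The treated arrays were higher in numbers 1 and 3, and the difference was 0.42 (standard error 1.33 from limma), with 0.94, -1.15 and 1.48 in the numbers. PSMB8, which takes the place of PSMB5, read 6.11, 3.75 and 3.03 with DMSO and 6.46, 3.06 and 3.22 with Vorinostat at 209040_s_at. Its group means differed by -0.05 (standard error 1.24 from limma), the smallest difference among the 10 genes, turning to 0.07 after quantile normalisation and 0.38 with the control list scaled, and its signs in the numbers were those of PSMB9.

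**Figure D3:**
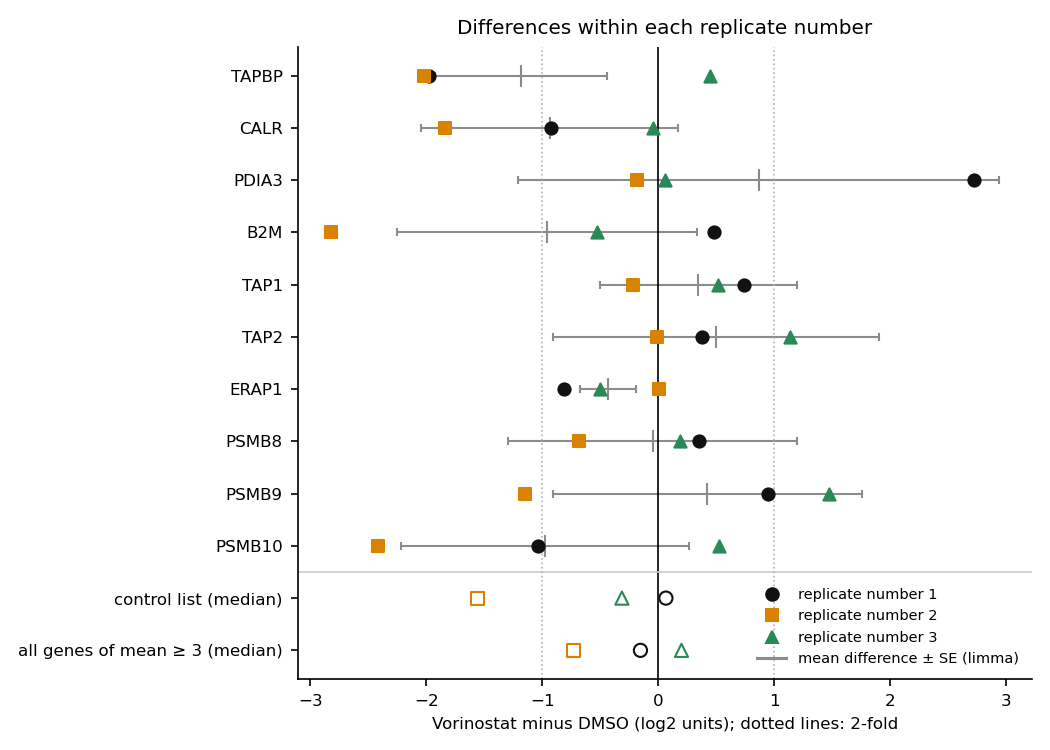
Vorinostat minus DMSO in log2 units for each gene within replicate number 1 (black circles), 2 (orange squares) and 3 (green triangles), with the mean difference and its standard error from limma in grey and dotted lines at 2-fold. Open symbols are the medians of the control list and of all genes with a mean of at least 3; TAPBP, CALR and PSMB10 lie to the left in numbers 1 and 2.

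The direction in which these genes moved depended on the replicate number. In number 1, TAPBP, CALR, ERAP1 and PSMB10 were lower with Vorinostat and 6 of the 10 genes were higher. In number 2, 9 of 10 were lower, ERAP1 being level at 0.0045, and in number 3, 7 of 10 were higher. Their median difference was 0.36, -0.91 and 0.32 in numbers 1, 2 and 3, and that of 3379 genes with a mean of at least 3 was -0.15, -0.73 and 0.20. Pooled, the median was -0.24 over the 10 genes, from -1.19 for TAPBP to 0.86 for PDIA3, beside -0.02 over all genes and -0.23 over those with a mean of at least 3. That median depended on single arrays. It was 0.39 without DMSO replicate 1, 0.34 without Vorinostat replicate 2 and 0.01 without Vorinostat replicate 3, but -0.50 without DMSO replicate 2, -0.62 without DMSO replicate 3 and -1.19 without Vorinostat replicate 1. It was -0.10 after quantile normalisation, 0.12 without both number 2 arrays and 0.19 with the control list scaled to be equal.

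By role, the median difference was -0.95 for TAPBP, CALR, PDIA3 and B2M, 0.35 for TAP1, TAP2 and ERAP1, and -0.05 for the immunoproteasome subunits, which after quantile normalisation became -0.47, 0.24 and 0.07. A lower value in every number was seen in 4 of the 25 probe sets, against 14.7% of all probe sets. By gene it was CALR, 1 of 10, against 13.7% of all genes and 19.5% of genes with a mean of at least 3. The number of probe sets above 3 was lower with Vorinostat in numbers 1 and 2 and higher in number 3, and the control list was lower in numbers 2 and 3 and at 0.07 in number 1. The median of the 10 genes thus had the direction of both in number 2, of the control list alone in number 1 and of the probe set count alone in number 3, and the part of signal in the result was not tested.

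Whether TAPBP moved with its partners was read from the sign of each difference. In number 1, 3 of the 9 other genes were lower like TAPBP, against 58.7% of 3378 genes with a mean of at least 3. In number 2, 8 of 9 were lower, against 85.2%, and in number 3, 6 of 9 were higher, against 65.5%. The 9 include ERAP1 and TAP1, whose means lie under 3, unlike those of the genes they are set against. ERAP1 was among the 3 in number 1 and the exception in number 2, and TAP1 was counted with TAPBP in numbers 2 and 3. PSMB10 was the 1 of 9 with the signs of TAPBP in all 3 numbers, and 31.9% of those genes had them too. After quantile normalisation it was again PSMB10 alone, with 16.6% of the genes. This likeness rests on the labels of numbers 2 and 3, which the arrays did not tell apart. Vorinostat array 3 lay above DMSO array 2 for TAPBP (3.81 against 3.68) but below it for PSMB10 (2.66 against 4.76). Vorinostat array 2 lay below DMSO array 3 for TAPBP (1.66 against 3.37) but above it for PSMB10 (2.34 against 2.14). With these labels exchanged, the signs of the 2 genes would thus be opposite in both.

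TAPBP, at a mean of 3.49, was also placed among all genes with a mean of at least 3, which were not matched to it on signal. Of 3379 genes with a mean of at least 3, 1.92% had a lower difference than TAPBP in number 1, 12.0% in number 2 and 64.9% in number 3, and 3.49% had a lower mean difference. In number 1, B2M, TAP1, TAP2, PSMB8 and PSMB9 were between 0.35 and 0.94 higher with Vorinostat and PDIA3 2.72 higher, while TAPBP was 1.98 lower. After quantile normalisation TAPBP differed by -1.01, -2.57 and 0.13 in the 3 numbers, and 5.30%, 2.07% and 54.5% of these genes lay lower, so that it stood furthest down in number 1 as deposited and in number 2 once normalised.

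The distance of a gene from TAPBP was measured as the root mean square of the gaps between their 3 differences, over 3378 genes with a mean of at least 3. The median distance was 1.40 log2 units. PSMB10 was the nearest of the 7 other loading genes that reach this mean, at 0.59 and rank 62, followed by CALR at 0.68 and rank 103. The remaining 5 lay farther than the median gene, with PSMB8 at rank 2180, B2M at 2284, TAP2 at 2800, PSMB9 at 2847 and PDIA3 at 3358. After quantile normalisation PSMB10 had rank 35, CALR rank 536 and B2M rank 961, which puts B2M nearer than the median gene, while PSMB8, TAP2, PSMB9 and PDIA3 stayed farther than it. The 5 genes nearest to TAPBP were PSAT1, an enzyme of serine synthesis, RFLNB, IMPA1, an inositol monophosphatase, LTV1, a factor of ribosome assembly, and the splicing factor MBNL1, at distances from 0.05 to 0.23, and after quantile normalisation they had ranks from 45 to 224. They were picked for likeness on these 3 differences, and with so few differences many genes lie near any other.

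**Figure D4:**
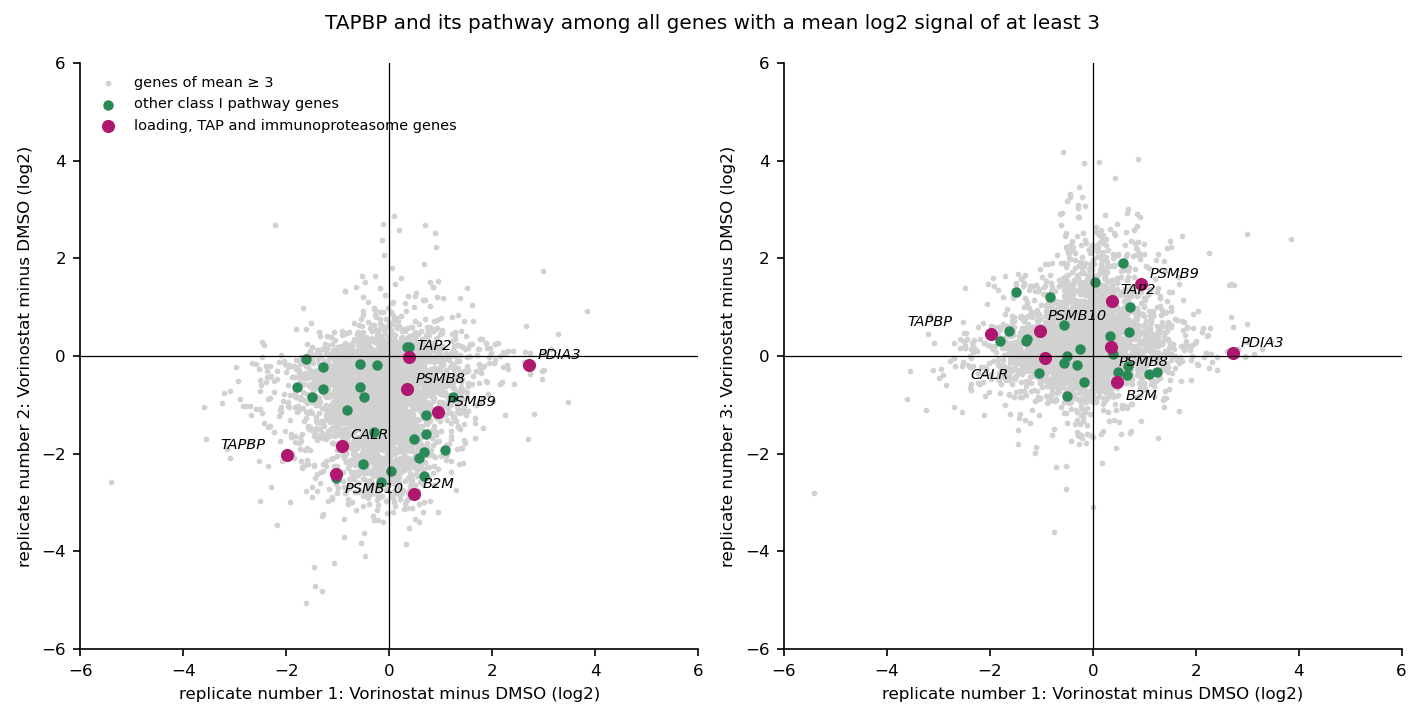
Vorinostat minus DMSO in log2 units in replicate number 1 (horizontal) against number 2 (left) and number 3 (right), with a grey point for each of 3379 genes with a mean of at least 3, the class I loading genes among them in magenta and other class I pathway genes in green. TAPBP lies at -1.98 in number 1, to the left of all other class I loading genes.

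The difference of TAPBP was set against that of each of the 9 other genes, array by array, in 9 pairs with an exact two-sided permutation test of 3 arrays against 3, whose smallest possible p is 0.1. TAPBP minus TAP2 gave -1.68 (standard error 1.20), TAPBP minus PSMB9 gave -1.61 and TAPBP minus TAP1 gave -1.53, each below 0 in all 3 numbers. The exact permutation p was 0.2 for TAP2 and 0.3 for PSMB9 and TAP1, with 0.9 after Benjamini-Hochberg adjustment over the 9 pairs. Against PSMB10, CALR and B2M it gave -0.21, -0.25 and -0.23, with exact permutation p of 0.9, 0.9 and 1. The design could not have passed 0.05 for any pair.

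Of 43 further genes of the class I route, 38 had a probe set of their own, and 0 passed the threshold of the study by limma, against 0.0455% of genes higher and 0.0506% lower. Their median difference was -0.19, with -0.03, -0.61 and 0.17 in numbers 1, 2 and 3, near those of all genes with a mean of at least 3. The lowest unadjusted p from limma over the 38 was 0.144, for IRF2, an interferon regulatory factor, at -0.27. Blocked on the replicate number, 2 of 38 passed the threshold, both lower, against 0.632% of all genes and 3.26% of those with a mean of at least 3. At an unadjusted p under 0.05 with the block, 2 were higher and 3 lower, against 2.25% and 3.12% of genes. Among the 25 of them with a mean of at least 3, 1 was higher and 3 lower, beside 83 and 316 of all 3379 such genes. The 3 arrays of the groups did not overlap for 1 of 38, HFE, higher by 0.62 on a dim probe set, against 2.3% of genes apart higher and 1.95% lower.

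The 2 genes past the threshold with the block were HLA-E, the class I molecule that presents leader peptides to receptors of natural killer cells, and PSMB5. HLA-E read 7.40, 6.23 and 4.95 with DMSO and 6.89, 4.02 and 4.14 with Vorinostat, and the groups overlapped. Its difference was -1.18 (adjusted p = 0.887 with the block, from limma), with -0.51, -2.20 and -0.81 in the numbers. PSMB5, the catalytic subunit that PSMB8 replaces, read 5.50, 4.20 and 2.51 with DMSO and 4.46, 1.71 and 2.16 with Vorinostat. It differed by -1.29 (adjusted p = 0.887 with the block, from limma), with -1.04, -2.49 and -0.35 in the numbers. Also at p under 0.05 with the block were GANAB, a glucosidase subunit, lower by 0.44, and ERAP2, a trimming enzyme like ERAP1, and RFX5, a transcription factor of MHC genes, with differences of 0.46 and 0.31.

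The heavy chains themselves, HLA-B, HLA-C, HLA-E, HLA-F and HLA-G, had a median difference of -0.50, with 0.67, -2.10 and -0.33 in numbers 1, 2 and 3, which became 0.0025 after quantile normalisation and -0.067 with the control list scaled. These medians had the signs of B2M, whose differences were 0.48, -2.82 and -0.52, and not those of TAPBP. The control list of general genes had the same signs, at 0.07, -1.56 and -0.31. By gene, HLA-B, HLA-F and HLA-G had them. HLA-C, at 0.59, -2.10 and 1.91, and HLA-E, at -0.51, -2.20 and -0.81, did not. All 5 heavy chains were read by probe sets of the kind that may bind other transcripts too. HLA-B differed by -0.73, or 0.09 after quantile normalisation, HLA-C by 0.13, HLA-F by 0.02 and HLA-G by -0.50, none of which passed the test. Without Vorinostat replicate 1, HLA-B at -1.73 and HLA-E at -2.11 passed the threshold of the study (adjusted p = 0.932 from limma), and without both number 1 arrays HLA-E did at -1.51. The chaperone calnexin (CANX), which holds new heavy chains before calreticulin does, was at -1.50, -0.84 and 1.30 in the numbers as labelled. It thus had the signs of TAPBP, as did 9 of 25 further class I genes with a mean of at least 3, CANX included. Of all genes with such a mean, 31.9% had them. After quantile normalisation CANX was at -1.59, 1.21 and 1.07 and no longer had the signs of TAPBP. Its mean difference of -0.34 turned to 0.23 after quantile normalisation and 0.09 with the control list scaled. PRKCSH, partner of GANAB, differed by -0.56, and TAPBPL, a relative of tapasin outside the loading complex, by -0.21 on a dim probe set.

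The standard subunits gave values to set beside those of the immunoproteasome. PSMB6, the counterpart of PSMB9, differed by -0.24, with -0.82, -1.10 and 1.20 in the numbers. PSMB7, the counterpart of PSMB10, differed by 0.17, with 0.72, -1.22 and 1.00. So PSMB8 and PSMB9 lay above their counterparts in mean difference and PSMB10 below its own, a contrast that was not tested and in which the standard errors of all 6 genes were over 1.

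**Figure D5:**
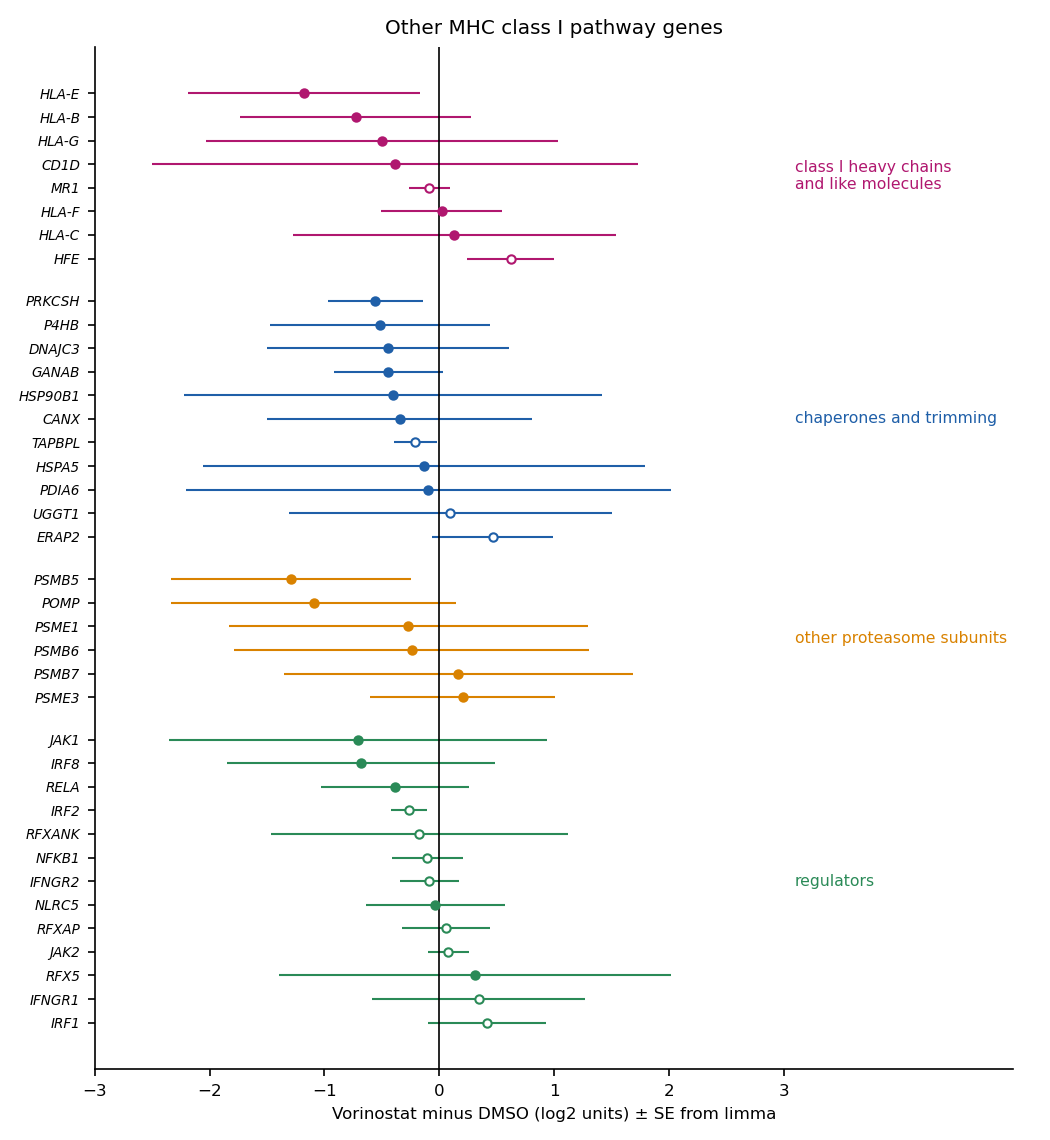
Vorinostat minus DMSO in log2 units for 38 further genes of the class I route, with the standard error from limma as a bar, by role. Filled points have a mean log2 signal of at least 3 over the 6 arrays and open points a lower one; PSMB5 at -1.29 and HLA-E at -1.18 lie furthest to the left.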

How the data were processed

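The authors deposited log2 values for 54675 probe sets on 6 arrays, 3 per group. Their methods name Partek Genomics Suite and the processing notes MAS5 and RMA, without role or version, and log2 was read from the range of 0.868 to 13.76. Of these, 62 are control probe sets and were dropped, and 54613 were fitted without further normalisation or filter by limma 3.58.1 (R 4.3.3; lmFit, eBayes, no block) with Benjamini-Hochberg adjustment. Gene names came from the platform's annotation, 41091 probe sets naming 1 gene, and all 10 gene IDs matched RefSeq. A gene stands for its probe set with the highest mean. The text names every loading gene, the pathway genes past the threshold of the study or among the 8 with the smallest p, partners of the loading genes and the 5 genes most like TAPBP. These genes and lists were chosen with earlier results of these data known. Same-numbered arrays deviated together from their group means (r of 0.874, 0.599 and 0.672 across probe sets, which are not independent). On this ground the numbers were read as pairs, but the r of numbers 2 and 3 cannot decide their pairing. The deviations of 3 arrays from their mean cancel out. With array 1 set apart in both groups, arrays 2 and 3 therefore deviate together under either pairing. For numbers 2 and 3, the differences, signs, distances and block fit thus rest on the labels. Numbers 2 and 3 were not told apart, since DMSO 3 with Vorinostat 2 gave 0.695 and DMSO 2 with Vorinostat 3 gave 0.594. The script was tested on simulated data with larger changes and less noise than the brighter loading genes had here. That test checks the code and not the power in these data. The number of arrays limits the precision.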

Additional observations from a re-analysis of the deposited data

How the results depend on the processing

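The difference of TAPBP 208829_at stayed below 0 under all alternatives run, from -2.0 to -0.57 with arrays left out. Of the 25 probe sets, 0 passed the threshold of the study in all other settings, and 0 to 1 with arrays left out. Of the 38 pathway genes 0 passed it, against 1 after quantile normalisation (PSMB5) and 0 to 2 with arrays left out. With the replicate number as a block, 2 passed it, and the block changed no other call at this threshold named here. At an unadjusted p under 0.05 from limma it added GANAB, ERAP2 and RFX5, which were not under 0.05 in the main fit. Leaving out both arrays of number 2 or of number 3 and scaling to the control list were chosen after seeing the data, and the causes of the changes below were not tested.

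The median over the 10 genes ran from -1.19 to 0.39 with arrays left out. Quantile normalisation turned the sign of PSMB8 (0.074), B2M 201891_s_at (0.32), CANX (0.23), HLA-B (0.088), PRKCSH (0.060) and ERAP1 214034_at (3.6e-05), and centring on medians that of ERAP1 214034_at (0.0023). Scaling to the control list, which raises the median of all genes to 0.42, gave 0.38 for PSMB8, 0.074 and 0.40 for B2M 201891_s_at and 232311_at, 0.28 for CALR 200935_at, 0.39 for PDIA3 229453_at, 0.062 and 0.33 for TAPBP 210294_at and 1555565_s_at, 0.35, 0.43 and 0.42 for ERAP1 209701_at, 214034_at and 214012_at, 0.088 for CANX, 0.16 for IRF2, 0.19 for PSMB6 and 0.22 for TAPBPL.

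With single arrays or both arrays of a number left out, signs also changed for other differences, and their ranges follow. B2M 201891_s_at ranged from -1.59 to 0.62, B2M 216231_s_at from -2.24 to 0.14, B2M 232311_at from -0.12 to 0.014, and CALR 200935_at from -0.24 to 0.0028. CALR 212953_x_at ranged from -0.44 to 0.72, CANX from -1.41 to 0.74, ERAP1 209701_at from -0.13 to 0.017, and ERAP1 214012_at from -0.079 to 0.062. ERAP1 214034_at ranged from -0.074 to 0.067, ERAP2 from -0.036 to 0.81, HLA-B from -1.73 to 0.22, and HLA-C from -0.97 to 1.27. HLA-F ranged from -0.59 to 0.45, HLA-G from -1.99 to 0.42, PDIA3 208612_at from -1.24 to 2.04, and PDIA3 227033_at from -0.17 to 0.54. PDIA3 229453_at ranged from -0.26 to 0.12, PSMB6 from -1.31 to 1.12, PSMB7 from -1.16 to 1.25, and PSMB8 209040_s_at from -1.15 to 0.86. PSMB9 204279_at ranged from -0.69 to 1.28, TAP1 202307_s_at from -0.42 to 0.92, TAP2 204769_s_at from -1.08 to 0.015, and TAP2 204770_at from -0.0053 to 0.37. TAP2 208428_at ranged from -0.047 to 0.10, and TAP2 225973_at from -0.61 to 1.67.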
